A study of Mus musculus with 18 samples.

Results

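Regulatory T (Treg) cells that overexpressed miR-24 (miR-24 Tg) were set against wild-type (WT) Treg cells, with 3 RNA sequencing libraries in each group, 6 of the 18 libraries of the series. The members were all genes with at least 1 RPKM (mapped reads scaled to transcript length and to library depth) in at least 3 of the 18 libraries, which left 11520 of the 23953 entries of the table. The cells were sorted as CD4+ cells with high CD25 from C57BL/6 mice. The study's design places the overexpression in T cells, and its title names CD4cre. The Cd4 promoter is active in developing T cells, so conventional T cells of the same mice would carry the transgene as well. The other genotypes, with 3 libraries each, overexpressed miR-23 (miR-23 Tg), miR-27 (miR-27 Tg) or the whole cluster (cluster Tg), or had both miR-23 clusters deleted in T cells (DKO). The labels write "Tg" after WT and DKO too, and do not say what a WT or DKO mouse carried. Whether each library is a separate animal, and the age and sex of the mice, is not stated in the labels. The p-values therefore describe only how far these samples spread, which may be partly technical.

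MicroRNAs are short RNAs that guide Argonaute proteins to messenger RNAs, mostly through pairing of their seed with sites in the 3′ UTR, and lower the stability or translation of those messages. miR-24 is transcribed together with miR-23 and miR-27 from a cluster on chromosome 8 and a second one on chromosome 13. Treg cells are CD4+ T cells that restrain immune responses under the transcription factor Foxp3, and activated, tissue-homing effector Treg differ from resting, lymph node-homing Treg in their receptors for chemokines and cytokines.

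The mature sequences are shown because the seed defines the site searched for in the messages. They are given from RefSeq (GRCm38.p6), 5′ to 3′, with the seed, bases 2 to 8, in capitals. The seeds of miR-23a and miR-27a begin with the same bases, and that of miR-24 begins with others.
miR-24-3p (chr8:84208875-84208896, plus strand): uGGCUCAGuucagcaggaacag
miR-23a-3p (chr8:84208563-84208583, plus strand): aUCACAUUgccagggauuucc
miR-27a-3p (chr8:84208727-84208747, plus strand): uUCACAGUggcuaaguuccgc

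A messenger RNA with a miR-24 seed site holds CTGAGCC, the reverse complement of that seed. The 6 genes below had the smallest p-values among the genes that were lower in miR-24 Tg and had such a site. Each is shown by the site nearest its stop codon, in capitals, within at most 30 bases of the 3′ UTR (GENCODE release M21, GRCm38, strand of the gene).
Ecm1 (chr3:95734222-95734239, minus strand): gtcaccCTGAGCCtcaga
Sptlc2 (chr12:87309832-87309861, minus strand): ggacagtgtgtggcctttCTGAGCCaattc
Frmd8 (chr19:5852440-5852469, minus strand): ctgacatccaagccttccCTGAGCCtggtg
Fam134c (chr11:101097660-101097689, minus strand): caggcccacttcctgtccCTGAGCCcatct
Ttyh3 (chr5:140623152-140623181, minus strand): tctgtcctcttgggctccCTGAGCCctgct
Slc25a44 (chr3:88411845-88411874, minus strand): cttatctcctcaggccagCTGAGCCaagcc

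The Mir24-2 locus was high in miR-24 Tg. It lies on chromosome 8 from 84208815 to 84208921 (GRCm38) and was listed at 7999, 22320 and 10170 RPKM in the miR-24 Tg libraries, against 50.3, 0 and 0.0002 RPKM in the WT libraries. The groups did not overlap (two-sided exact permutation p = 0.1, the smallest that 3 against 3 libraries allow). RPKM is inflated at a hairpin this short and does not measure the mature microRNA. Mir3074-2, annotated within the same hairpin, stood at 0.013, 0.00867 and 0.00793 RPKM in miR-24 Tg, against 58.2, 0 and 71.6 RPKM in WT, and reads of these overlapping entries cannot be told apart. The second copy, Mir24-1 on chromosome 13, had essentially no signal in any of the 6 libraries. Mir23a averaged 304 ± 458 RPKM in miR-24 Tg and 72.2 ± 78.0 RPKM in WT (SD, n = 3 each, exact permutation p = 0.7), and Mir27a averaged 338 ± 318 RPKM in miR-24 Tg and 164 ± 174 RPKM in WT (exact permutation p = 0.6).

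Treg identity was clear in all 6 libraries. Foxp3 stood at 291, 286 and 236 RPKM in miR-24 Tg, against 334, 287 and 336 RPKM in WT. Il2ra, the CD25 chain used in the sort, stood at 216, 166 and 193 RPKM in miR-24 Tg and 208, 203 and 254 RPKM in WT. Neither passed the test (adjusted p = 0.415 for Foxp3 and 0.434 for Il2ra). Library 1 of each group had high Ddx3y and almost no Xist and the other 2 of each group the reverse, so male and female patterns were balanced between the groups (both genes were chosen after their values were seen). The libraries of a group were thus not all from 1 animal. The estimated depth ran from 22.6 to 34.55 megareads over all 18 libraries.

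Summed marker levels of other cell types differed between libraries. The summed level of 20 B cell markers was 982, 406 and 283 RPKM in the miR-24 Tg libraries, against 231, 243 and 165 RPKM in the WT libraries, and that of 21 myeloid markers 399, 188 and 161 RPKM in miR-24 Tg, against 112, 122 and 116 RPKM in WT. The 12 NK cell markers summed to 69.5, 37.9 and 24.3 RPKM in miR-24 Tg, against 17.9, 26 and 20.5 RPKM in WT, and 13 erythroid and platelet markers to 76.8, 20.3 and 5.57 RPKM in miR-24 Tg, against 5.27, 24.9 and 3.06 RPKM in WT. miR-24 Tg library 1 was the highest on all 4 sums, and no marker of these lists was at 0 in all 6 libraries. Of the 19 B cell markers tested, 7 were higher and none lower, and of 18 myeloid markers 3 were higher and none lower. Of 10 NK cell markers 1 was higher, and of 7 erythroid and platelet markers none passed in limma, also at an unadjusted p under 0.05. The B cell gene Ms4a1 stood at 8.89, 1.83 and 3.03 RPKM in miR-24 Tg, against 0.662, 0.514 and 0.528 RPKM in WT (3.99-fold, adjusted p = 0.0342), a call lost in 10 of the alternatives, among them leaving out any library but miR-24 Tg library 2. In bulk RNA, more cells of a type and more RNA per cell cannot be told apart.

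In miR-24 Tg against WT, 530 genes were higher (4.6% of those tested) and 504 lower (4.38%), at an adjusted p under 0.05 in limma on log2(RPKM + 0.5). Rises were larger and met weakly expressed genes, while falls were smaller and met well expressed ones. The called rises had a median of 1.61-fold and a median WT level of 5.11 RPKM, the called falls a median of 1.41-fold and a median WT level of 30.7 RPKM. At least 2-fold were 130 of the rises and 61 of the falls. In 526 of the higher and 501 of the lower genes the groups did not overlap, as they did not in 15.9% and 14.6% of all tested genes. Small RNA entries made up 4 of the higher and 3 of the lower genes. Calls that also held without any 1 of the 6 libraries numbered 186 higher (1.61%) and 212 lower (1.84%), and these are called stable here. The shares of 4.6% higher and 4.38% lower are those to set beside the main counts of every gene list.

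Without miR-24 Tg library 1, 264 genes were higher (2.29%) and 328 lower (2.85%). A fit that took the B cell gene level as a covariate called 165 higher (1.43%) and 173 lower (1.5%). Single WT libraries moved the counts as well: 295, 294 and 268 genes were higher without WT library 1, 2 or 3, and 255 and 321 lower without WT library 1 or 3. The part of other cells in the calls was not tested beyond these counts, and the covariate counts are given for the main gene groups below as well. A call lost with the covariate does not by itself mean a smaller change, since for some genes the log2 change hardly moved.

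The largest falls included genes that are typical of Treg cells. Gpr83, a G protein-coupled receptor enriched in Treg, stood at 14.3, 7.48 and 15.9 RPKM in miR-24 Tg, against 69.2, 79.6 and 112 RPKM in WT. It fell 6.88-fold (log2 change -2.78, SE 0.34, adjusted p = 0.000296), and every miR-24 Tg library was far below the lowest WT library. Ecm1, a secreted matrix protein that Treg express highly, stood at 29.7, 33.1 and 33.1 RPKM in miR-24 Tg, against 125, 128 and 168 RPKM in WT. Its fall of 4.3-fold (log2 change -2.10, SE 0.12) had an adjusted p of 3.95e-07. The miR-24 Tg libraries lay close together, and Ecm1 is the 1 gene with a miR-24 site among the 10 of the 12 largest stable falls that had an annotated 3′ UTR.

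Other falls of this group covered an immunoglobulin-family protein, receptor chains and regulators of transcription. Igsf23 stood at 4.53, 2.66 and 2.66 RPKM in miR-24 Tg, against 15.8, 20.5 and 21.8 RPKM in WT (5.33-fold lower, adjusted p = 7.7e-05). Gabrr2, a subunit of ionotropic GABA receptors, stood at 1.06, 2.03 and 2.2 RPKM in miR-24 Tg, against 8.87, 8.53 and 10.5 RPKM in WT (4.44-fold lower, adjusted p = 0.00154). Plagl1, a zinc finger transcription factor, was tight in both groups, with 1.46, 1.55 and 1.46 RPKM in miR-24 Tg, against 6.39, 7.07 and 7.07 RPKM in WT (3.69-fold lower, adjusted p = 0.000225). Rec8, the meiotic cohesin subunit, averaged 3.40 ± 0.265 RPKM in miR-24 Tg and 15.8 ± 4.88 RPKM in WT (SD, n = 3 each; 4.04-fold lower, adjusted p = 0.0021), a call that ended with the B cell covariate. Prr7, an adaptor protein, fell 3.67-fold, Gata1, the erythroid transcription factor, 2.64-fold, and Ager, the receptor for advanced glycation end products, 2.52-fold. The adjusted p-values of these 3 falls ran from 0.000654 for Prr7 to 0.0042 for Gata1.

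A pair of further falls differed in how the other genotypes stood. Gt(ROSA)26Sor, the noncoding transcript of the Rosa26 locus, stood at 4.83, 4.83 and 3.71 RPKM in miR-24 Tg, against 14.7, 13.3 and 18.9 RPKM in WT (3.24-fold lower, adjusted p = 0.000666). Its mean was close to that in miR-23 Tg (5.54 ± 0.534 RPKM), miR-27 Tg (3.47 ± 0.453 RPKM) and cluster Tg (5.48 ± 2.36 RPKM), and it stood at 15.8 ± 2.15 RPKM in DKO. Rln3, the gene of relaxin 3 on chromosome 8, stood at 23.2, 14.7 and 25.9 RPKM in miR-24 Tg, against 49.7, 55.8 and 61.4 RPKM in WT (2.64-fold lower, adjusted p = 0.00198). Its mean in the other genotypes ran from 47.5 RPKM in DKO to 76.3 RPKM in cluster Tg.

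The list of Treg identity genes moved mostly down. Of 29 tested genes, 10 were lower and 1 was higher, with a median log2 change of -0.26 beside 0.011 over all tested genes. Stable falls numbered 5 and stable rises 0. With the B cell covariate 4 were lower, and without miR-24 Tg library 1 there were 9. Beside Gpr83, Ecm1 and Plagl1, Swap70, an actin-binding signalling protein, stood at 16.2, 12.8 and 13.4 RPKM in miR-24 Tg, against 30.8, 33.7 and 30.1 RPKM in WT (2.2-fold lower, adjusted p = 0.000103). Foxp3, Ikzf2 and Ctla4 did not pass. Ikzf2, which encodes Helios, averaged 98.9 ± 1.41 RPKM in miR-24 Tg and 103 ± 7.25 RPKM in WT (adjusted p = 0.884), and Ctla4 averaged 482 ± 170 RPKM in miR-24 Tg and 442 ± 58.2 RPKM in WT (adjusted p = 0.86). The IL-2 receptor beta chain Il2rb fell 1.42-fold (403 ± 26.2 RPKM in miR-24 Tg and 574 ± 64.3 RPKM in WT, adjusted p = 0.0223), which did not hold without miR-24 Tg library 2 or 3, without WT library 3, with the B cell covariate or in a fit on only both groups.

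Genes of resting and central T cells leaned down as well, with exceptions. Of 22 tested, 5 were lower and 2 higher, with a median log2 change of -0.37, and with the B cell covariate 1 was lower and 1 higher. Tcf7, a transcription factor of naive and memory-like T cells, stood at 164, 203 and 178 RPKM in miR-24 Tg, against 269, 288 and 282 RPKM in WT (1.54-fold lower, adjusted p = 0.00482). The integrin chain Itga6 fell 1.69-fold (adjusted p = 0.00454) and the costimulatory receptor Cd27 1.61-fold (181, 132 and 192 RPKM in miR-24 Tg, against 272, 259 and 275 RPKM in WT, adjusted p = 0.0113). Tcf7, Itga6, Cd27 and Rapgef4 were no longer called with the B cell covariate. The exceptions were Dapl1, a small protein of unclear function, and Rapgef4, an exchange factor for the GTPase Rap that responds to cyclic AMP. Dapl1 stood at 42.7, 45.5 and 43.1 RPKM in miR-24 Tg, against 7.81, 7.03 and 13.8 RPKM in WT, which is 4.59-fold higher (adjusted p = 0.000418). Rapgef4 was 1.99-fold higher (6.19 ± 1.26 RPKM in miR-24 Tg and 2.89 ± 0.846 RPKM in WT, adjusted p = 0.0081).

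Chemokine ligands were among the largest rises. Xcl1, which attracts cross-presenting dendritic cells, stood at 38.5, 56.5 and 44.6 RPKM in miR-24 Tg, against 8.13, 9.09 and 4.15 RPKM in WT (6.39-fold, log2 change 2.67, SE 0.42, adjusted p = 0.00167). Ccl1, a ligand of CCR8, stood at 20.8, 26.2 and 40.8 RPKM in miR-24 Tg, against 4.36, 5.35 and 4.01 RPKM in WT (5.67-fold, log2 change 2.50, SE 0.34, adjusted p = 0.000666). Ccl5, a chemokine made by activated T cells, stood at 95.9, 78.2 and 64.5 RPKM in miR-24 Tg, against 23.6, 15.3 and 13.2 RPKM in WT (4.55-fold, adjusted p = 0.0017). In all 3 the lowest miR-24 Tg library was at least 2-fold above the highest WT library. Of the 10 ligands tested, 5 rose and none fell, 3 of them stably, and 3 rose with the B cell covariate as well as without miR-24 Tg library 1. Several of these genes are also known from NK cells, and the part of the NK cell markers given above was not tested. Ccl3 reached 10.1 RPKM in miR-24 Tg library 1 and 2.74 and 1.63 RPKM in libraries 2 and 3, against 0.312 to 0.399 RPKM in WT (4.91-fold, adjusted p = 0.0182), and was no longer called without that library, without any 1 of the WT libraries, in a fit on only both groups or with the B cell covariate, where its log2 change was 1.06 in place of 2.30.

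Of 29 chemokine and homing receptors tested, 8 were higher and 3 lower, and without miR-24 Tg library 1 there were 3 higher and 2 lower. Cxcr3, the receptor of interferon-induced chemokines, stood at 60.4, 56.4 and 61.5 RPKM in miR-24 Tg, against 23.4, 16.5 and 21.4 RPKM in WT (2.89-fold, adjusted p = 0.00333). Ccr4, a receptor of skin-homing T cells, rose 1.85-fold (46.2 ± 9.38 RPKM in miR-24 Tg and 24.6 ± 3.62 RPKM in WT, adjusted p = 0.00953). With the B cell covariate none was higher and 2 were lower, so Cxcr3 and Ccr4 both lost their call there. Their log2 changes were then 1.364 and 0.662, in place of 1.53 and 0.888. Selp, which encodes P-selectin and is best known from platelets and endothelium, went the other way at low levels, with 0.131, 0.14 and 0.201 RPKM in miR-24 Tg, against 2.98, 2.28 and 2.9 RPKM in WT (4.88-fold lower, adjusted p = 4.46e-05).

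Genes of type 1 (Th1) responses had the highest share of rises of any list. Of 19 tested, 11 rose and none fell, 7 of them stably, with a median log2 change of 1.09. Without miR-24 Tg library 1, 8 rose, and with the B cell covariate 3 did. Il18r1, the ligand-binding chain of the IL-18 receptor, stood at 78.8, 111 and 75.6 RPKM in miR-24 Tg, against 32.8, 31.1 and 23.2 RPKM in WT (3-fold, adjusted p = 0.000529). Its partner Il18rap rose 2.58-fold (11.5 ± 1.19 RPKM in miR-24 Tg and 4.17 ± 0.691 RPKM in WT, adjusted p = 0.0042). The cytokine Il18, which is not on the Th1 list, rose 2.1-fold (3 ± 0.254 RPKM in miR-24 Tg and 1.21 ± 0.532 RPKM in WT, adjusted p = 0.00755). Stat4, which transmits IL-12 signals, rose 1.4-fold (59.2 ± 2.12 RPKM in miR-24 Tg and 42.0 ± 2.16 RPKM in WT, adjusted p = 0.0105). Ly6c2, a surface marker of activated T cells and monocytes, stood at 19.8, 8.97 and 15 RPKM in miR-24 Tg, against 1.22, 1.59 and 2.5 RPKM in WT (6.5-fold, adjusted p = 0.00304). The calls of Ly6c2, Stat4 and Il18 ended with the B cell covariate, those of Il18r1 and Il18rap did not. The log2 change of Ly6c2 was then 1.882 in place of 2.7. That of Stat4 was 0.515 in place of 0.489, and that of Il18 1.07 in place of 1.073.

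Effector Treg genes rose without exception among those called. Of 33 tested, 14 were higher and none lower (median log2 change 0.76), 8 of them stably; with the B cell covariate 5 were higher, and without miR-24 Tg library 1 there were 8. Icos, a costimulatory receptor of effector Treg, stood at 164, 171 and 160 RPKM in miR-24 Tg, against 88.8, 84.9 and 93.2 RPKM in WT (1.85-fold, adjusted p = 0.000296). Fgl2, a secreted mediator of suppression, stood at 29, 21.4 and 19.3 RPKM in miR-24 Tg, against 10.2, 8.07 and 8.9 RPKM in WT (2.46-fold, adjusted p = 0.000507). Itgb1, the beta 1 integrin chain, rose 2.21-fold (138 ± 19.8 RPKM in miR-24 Tg and 62.3 ± 10.4 RPKM in WT, adjusted p = 0.00107), and the transcription factor Maf 1.88-fold (87.5 ± 17.9 RPKM in miR-24 Tg and 45.7 ± 2.01 RPKM in WT, adjusted p = 0.00132). Icos, Fgl2, Itgb1 and Maf each passed in all alternatives run, the B cell covariate included.

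Inhibitory and costimulatory receptors rose in part. Of 23 tested, 7 were higher and none lower, 2 of them stably, and 5 were higher with the B cell covariate and 3 without miR-24 Tg library 1. Pdcd1, which encodes PD-1, stood at 76.4, 67 and 68.5 RPKM in miR-24 Tg, against 36.1, 36.6 and 46.8 RPKM in WT (1.77-fold, adjusted p = 0.00303). Tigit stood at 154, 180 and 104 RPKM in miR-24 Tg, against 75.2, 69.3 and 65.5 RPKM in WT (2.03-fold, adjusted p = 0.0166), and missed the threshold without miR-24 Tg library 1 or 2, without WT library 3 and with the B cell covariate. Beside this list, Crtam, a receptor of activated cytotoxic cells, stood at 3.4, 4.69 and 8.71 RPKM in miR-24 Tg, against 1.16, 1.06 and 0.962 RPKM in WT (3.67-fold, adjusted p = 0.00332). Lilrb4, an inhibitory receptor of myeloid and activated lymphoid cells, rose 3.83-fold (16.7 ± 2.85 RPKM in miR-24 Tg and 4.24 ± 1.80 RPKM in WT, adjusted p = 0.00701). Cd22, an inhibitory receptor of B cells, rose 3.1-fold to 10.1, 5.13 and 6.1 RPKM in miR-24 Tg, against 2, 1.73 and 1.87 RPKM in WT (adjusted p = 0.00136), and was highest in the library with the most B cell markers.

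Members of the TNF family were called mostly as rises, with Fas and Cd27 as the only called falls. Tnfsf11, which encodes RANKL, stood at 39.5, 40.1 and 37.2 RPKM in miR-24 Tg, against 23.1, 21.3 and 21.1 RPKM in WT (1.77-fold, adjusted p = 0.00129), and Tnfsf14, which encodes LIGHT, rose 1.53-fold (adjusted p = 0.00842), a call lost with the B cell covariate. The death receptor Fas fell 1.28-fold (42.3 ± 2.2 RPKM in miR-24 Tg and 54.2 ± 0.599 RPKM in WT, adjusted p = 0.0112), a call lost without miR-24 Tg library 1 and with the covariate, and Cd27 is given above. Of 29 family members tested, 7 were higher and 2 lower, beside 4.6% higher and 4.38% lower of all tested genes. With the B cell covariate 2 were higher and none lower. Without miR-24 Tg library 1, 4 were higher and 1 lower. Among mediators of suppression, 4 of 21 rose and 1 fell, beside the same shares of all tested genes, and the 1 fall is near its share. With the B cell covariate 2 rose and none fell. Nt5e, which encodes CD73, rose 1.46-fold (149 ± 5.24 RPKM in miR-24 Tg and 102 ± 9.65 RPKM in WT, adjusted p = 0.0124), a call lost without WT library 2. Lrrc32, which encodes the latent TGF-beta anchor GARP, stood at 79.8, 75.9 and 73.3 RPKM in miR-24 Tg, against 144, 131 and 142 RPKM in WT (1.82-fold lower, adjusted p = 0.0163), and lost its call without WT library 1 or 3 and with the B cell covariate.

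Helper programmes other than Th1 gave fewer calls. Of the Th2 list 3 of 12 genes rose, of the Th17 list 2 of 17 and of the follicular list 5 of 16, and none of these 3 lists had a fall. With the B cell covariate none of the Th2 and Th17 genes and 3 of the follicular genes were higher, and without miR-24 Tg library 1 there were 1, 1 and 3 higher, in the order of the lists. Il9r, the IL-9 receptor and none of these lists' members, rose 2.47-fold (10.9 ± 3.79 RPKM in miR-24 Tg and 3.96 ± 0.428 RPKM in WT, adjusted p = 0.0101) and kept its call with the B cell covariate.

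Genes of proximal T cell receptor signalling gave few calls, among them falls of Cd5, Cd6 and Lck. Of 47 tested genes, 5 were lower, 2 higher and 40 not called, beside 4.38% lower and 4.6% higher of all tested genes. The median log2 change was -0.05, and 3 were lower and 1 higher with the B cell covariate. Cd5, a receptor that dampens T cell receptor signals, stood at 212, 218 and 222 RPKM in miR-24 Tg, against 339, 312 and 348 RPKM in WT (1.53-fold lower, log2 change -0.61, SE 0.07, adjusted p = 0.000296). Its relative Cd6 stood at 146, 175 and 152 RPKM in miR-24 Tg, against 234, 215 and 224 RPKM in WT (1.42-fold lower, adjusted p = 0.00388), a call that ended with the B cell covariate. The kinase Lck fell 1.4-fold (360 ± 17.3 RPKM in miR-24 Tg and 506 ± 29.8 RPKM in WT, adjusted p = 0.00359), while the kinase Tec rose 1.71-fold (9.31 ± 1.30 RPKM in miR-24 Tg and 5.20 ± 0.124 RPKM in WT, adjusted p = 0.00117). The annotated 3′ UTRs of Cd5, Cd6 and Lck held no miR-24 site. Outside this list, Stat5a, which carries IL-2 signals, fell 1.43-fold (33.1 ± 3.33 RPKM in miR-24 Tg and 47.6 ± 3.11 RPKM in WT, adjusted p = 0.00644), a call that ended with the B cell covariate. The survival factor Mcl1 fell 1.36-fold (210 ± 6.48 RPKM in miR-24 Tg and 287 ± 10.5 RPKM in WT, adjusted p = 0.0019), and Ski, a repressor of TGF-beta signals, 1.39-fold (adjusted p = 0.00244).

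Housekeeping programmes and cell division gave few or no calls. No gene passed among 75 respiratory chain subunits, 31 proteasome subunits, 21 genes of MHC class I presentation, 40 genes of DNA replication or 40 genes of mitosis in limma. At an unadjusted p under 0.05 in limma stood 5, 0, 3, 4 and 5 genes of these lists, in the same order. Over all 11520 tested genes 2769 did, a larger share than in any of these lists. The mitosis list still had a median log2 change of 0.70 with wide spread: its summed level was 278, 175 and 450 RPKM in miR-24 Tg, against 124, 193 and 238 RPKM in WT. Mki67, the marker of cycling cells, stood at 20.9, 12.5 and 25.1 RPKM in miR-24 Tg, against 5.69, 11.8 and 10.4 RPKM in WT (2.04-fold, adjusted p = 0.0685), and passed without miR-24 Tg library 2, at a log2 change of 1.31. Of 83 cytosolic ribosomal protein genes 4 were lower, none of them stably, which is near the 4.38% of all tested genes. None was higher, and 18 stood at an unadjusted p under 0.05 in limma. Their median log2 change was -0.29. The summed level of the immediate-early genes overlapped between the groups, at 1850, 6050 and 2300 RPKM in miR-24 Tg, against 4960, 4430 and 2510 RPKM in WT. Of the 25 tested, 1 was higher and 1 lower.

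**Figure D1:**
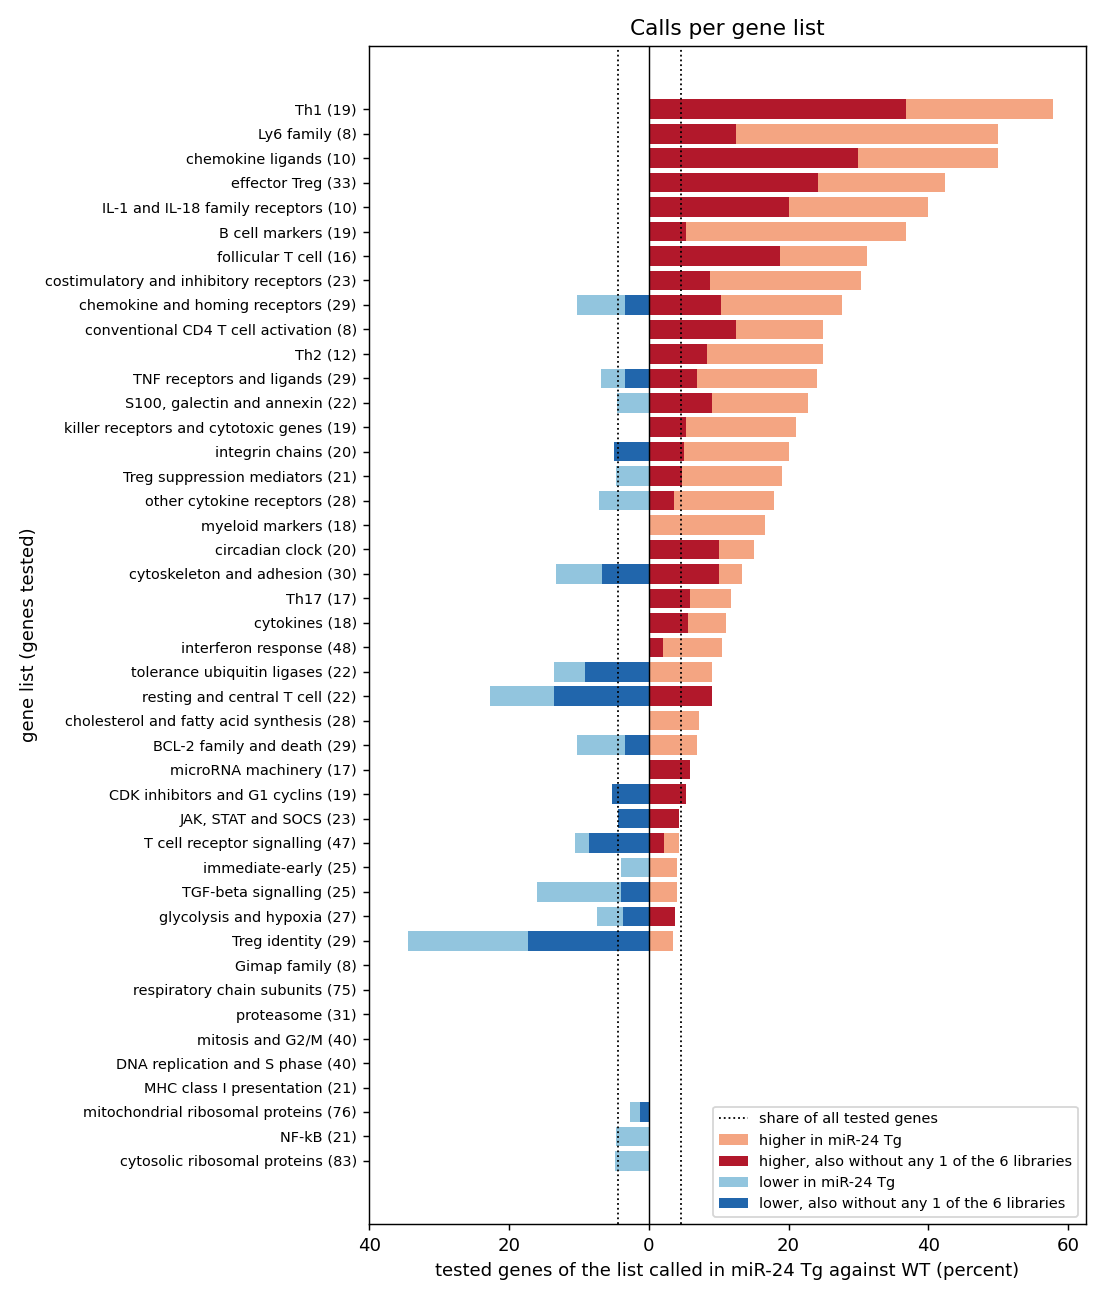
Share of the tested genes of each list that were called higher (right of 0) or lower (left of 0) in miR-24 Tg against WT, in percent, with the number tested in parentheses. Dark bars are the calls that held without any 1 of the 6 libraries, and dotted lines mark the share over all tested genes, 4.6% higher and 4.38% lower. The Th1 list reaches furthest right, with 11 of 19 genes higher, and the Treg identity list furthest left, with 10 of 29 lower.

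Genes with a miR-24 site were called lower more often than genes without one. Of 10577 tested genes with a 3′ UTR of at least 50 bases, 2017 (19.1%) held CTGAGCC on their own strand. Of these site genes 155 (7.68%) were lower and 79 (3.92%) higher, beside 3.8% lower and 4.96% higher among the 8560 genes with no site. With 1 site 7.12% were lower, and with 2 or more sites 9.77%. Of the 918 genes with a site followed by an A, a match of 8 bases, 7.63% were lower, no more than with any site. Read the other way, 155 of the 480 called falls with a 3′ UTR held a site (32.3%), as did 77 of 201 stable falls (38.3%), and 79 of 504 called rises (15.7%). The site matches are descriptions of letters in the longest annotated 3′ UTR, and no test was made of these shares.

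Sites of the sister microRNAs did not show this. The motif AATGTGA of miR-23, found in 16.3% of the tested 3′ UTRs, went with 3.12% lower and 5.67% higher genes, and ACTGTGA of miR-27, found in 17.2%, with 3.85% lower and 5.28% higher genes. Neither motif can share a base with CTGAGCC. Both also differ from it in base composition, and the shares are not split here by the base composition of the 3′ UTR. Because a long 3′ UTR is likelier to hold any motif, the shares were also taken by length. Among 3′ UTRs under 500 bases, 18.3% of 115 site genes were lower, against 4.3% of 2534 genes with no site. The shares were 10.6% and 4.15% for site genes and genes with no site from 500 to under 1500 bases, and 5.67% and 2.97% from 1500 bases up. The median log2 change of site genes was small, at -0.026, against 0.02 for genes with no site. Against the mean of miR-23 Tg and miR-27 Tg, 14.8% of site genes and 8.67% of the others were lower in miR-24 Tg. In cluster Tg against DKO these shares were 16.3% and 10.8%, and there miR-23 and miR-27 sites also went with higher shares of lower genes, 15.2% and 17.8%.

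**Figure D2:**
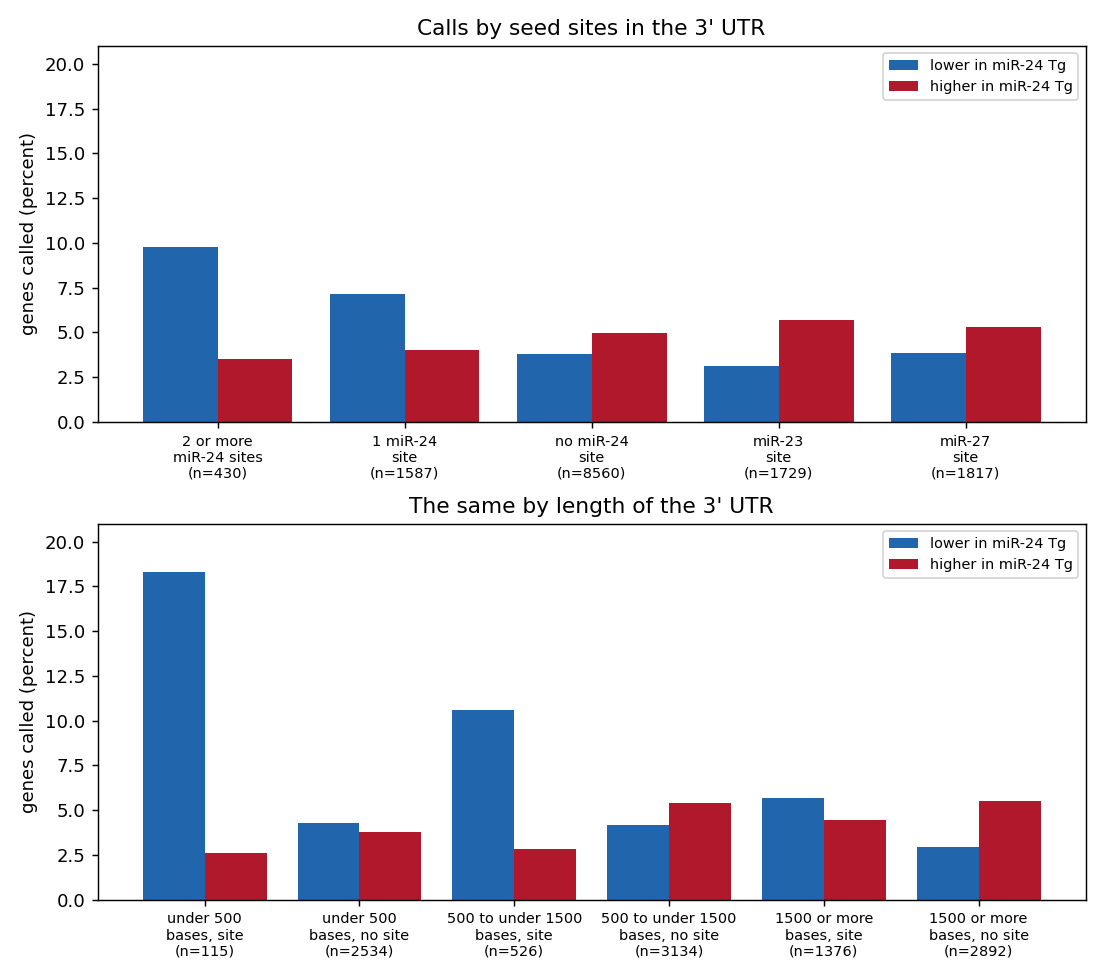
Percent of tested genes called lower (blue) or higher (red) in miR-24 Tg against WT, by seed sites in the 3′ UTR (top) and by the length of the 3′ UTR with and without a miR-24 site (bottom), with the number of genes in each class. Lower calls reach 9.77% with 2 or more miR-24 sites and 18.3% with a site in a 3′ UTR under 500 bases.

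The 6 site genes whose sequences are shown above were chosen by their small p-values and, apart from Ecm1, fell moderately. The Ecm1 site starts at base 7 of a 3′ UTR of only 93 bases. Ttyh3, a chloride channel, has 3 sites and stood at 15.7, 13.7 and 11.2 RPKM in miR-24 Tg, against 33.6, 34.3 and 35 RPKM in WT (2.51-fold lower, adjusted p = 0.000144). Fam134c, an endoplasmic reticulum protein of the family that serves in selective autophagy of that organelle, has 2 sites and stood at 45.2, 41.7 and 44.2 RPKM in miR-24 Tg, against 78.1, 78.6 and 73.7 RPKM in WT (1.75-fold lower, adjusted p = 0.00014). Frmd8, a stabiliser of the iRhom and TACE sheddase complex, has 4 sites and stood at 74.2, 64.2 and 74.5 RPKM in miR-24 Tg, against 118, 120 and 117 RPKM in WT (1.66-fold lower, adjusted p = 0.000103). Sptlc2, a subunit of serine palmitoyltransferase, the first enzyme of sphingolipid synthesis, has 2 sites and fell 1.6-fold (11.9 ± 1.04 RPKM in miR-24 Tg and 19.2 ± 0.945 RPKM in WT, adjusted p = 5.91e-05). Slc25a44, a mitochondrial carrier of branched-chain amino acids, has 4 sites and fell 1.55-fold (6.88 ± 0.275 RPKM in miR-24 Tg and 10.9 ± 0.406 RPKM in WT, adjusted p = 0.000251). In all 6 the highest miR-24 Tg library was below the lowest WT library, as in 501 of the 504 called falls and in 14.6% of all tested genes.

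Of 28 genes that the literature, mostly on other cells, names as miR-24 targets, 4 were lower and none higher, with a median log2 change of -0.09. H2afx, the histone variant of DNA damage signalling, stood at 12.3, 7.88 and 11.8 RPKM in miR-24 Tg, against 21.1, 20.8 and 24.9 RPKM in WT (2.07-fold lower, adjusted p = 0.0303), and has 2 sites. The activin receptor Acvr1b, also with 2 sites, fell 1.43-fold (adjusted p = 0.0429) and Myc 1.34-fold (adjusted p = 0.0493). Vhl, the ubiquitin ligase subunit that turns over hypoxia factors, stood at 10.6, 9.81 and 9.93 RPKM in miR-24 Tg, against 12.4, 13.1 and 13.3 RPKM in WT (1.27-fold lower, adjusted p = 0.00236). Of these 4 falls only that of Vhl was stable, and those of Acvr1b and Myc were also lost with the replicate block. Of the 28 genes 14 held a site. Cell cycle genes such as Ccna2 (log2 change 0.95), Cdk1 (0.84) and Aurkb (0.67) did not pass.

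The other single-member lines show which changes differ from those of miR-23 Tg and miR-27 Tg. Against the mean of both lines, 902 genes were higher in miR-24 Tg (7.83%) and 1057 lower (9.18%), in a contrast that uses the same miR-24 Tg libraries and none of WT. Gpr83 stayed low here: its 12.6 ± 4.47 RPKM in miR-24 Tg stood against 67.4 ± 5.16 RPKM in miR-23 Tg and 70.2 ± 17.2 RPKM in miR-27 Tg (5.5-fold lower, adjusted p = 0.000158). Ecm1, at 32.0 ± 1.95 RPKM in miR-24 Tg, stood at 87.1 ± 2.88 RPKM in miR-23 Tg and 92.7 ± 8.51 RPKM in miR-27 Tg (2.78-fold lower, adjusted p = 6.88e-06). Plagl1 (3.82-fold lower, adjusted p = 3.95e-05) and Xcl1 (4.03-fold higher, adjusted p = 0.00268) also differed. Igsf23 and Gabrr2 differed from the mean of both lines, but were low in miR-27 Tg too, at 5.48 ± 0.967 and 2.29 ± 0.249 RPKM.

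Sytl4, an X-linked gene that encodes granuphilin, a Rab27 effector of vesicle docking, was higher than in the other lines and in WT. It stood at 1.91, 2.33 and 2.76 RPKM in miR-24 Tg, against 0.0780 ± 0.0104 RPKM in miR-23 Tg and 0.0461 ± 0.0572 RPKM in miR-27 Tg (5.01-fold on the log2(RPKM + 0.5) scale, adjusted p = 9.23e-06), and against 0.198 ± 0.123 RPKM in WT (adjusted p = 0.00014). Its mean was 0.22 RPKM in cluster Tg and 0.0877 RPKM in DKO. Lhfpl1, a second X-linked gene, stood at 3.11 ± 0.342 RPKM in miR-24 Tg, 0.485 ± 0.0878 RPKM in miR-23 Tg and 0.302 ± 0.281 RPKM in miR-27 Tg (4.14-fold higher, adjusted p = 1.97e-05). Plscr1, a phospholipid scramblase induced by interferon, was 1.79-fold higher (adjusted p = 0.000142).

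Some falls were set against high levels in miR-27 Tg. Marcksl1, a regulator of the actin cytoskeleton with 1 miR-24 site, averaged 9.29 ± 0.632 RPKM in miR-24 Tg, against 18.5 ± 1.95 RPKM in miR-23 Tg and 62.4 ± 6.53 RPKM in miR-27 Tg (3.52-fold lower than their mean, adjusted p = 9.23e-06) and 19.8 ± 1.59 RPKM in WT. Ckb, brain-type creatine kinase with 1 site, averaged 8.94 ± 0.759 RPKM in miR-24 Tg, against 18.6 ± 0.789 RPKM in miR-23 Tg and 42.5 ± 6.84 RPKM in miR-27 Tg (3.03-fold lower, adjusted p = 9.23e-06). Aars, the alanyl-tRNA synthetase with 3 sites, and Triobp, an actin-bundling protein, were 1.93-fold and 1.75-fold lower (adjusted p = 9.23e-06 each). Among effector genes, Maf averaged 87.5 ± 17.9 RPKM in miR-24 Tg, against 55.5 ± 2.84 RPKM in miR-23 Tg and 135 ± 2.4 RPKM in miR-27 Tg (adjusted p = 0.991), and Cxcr3 missed the threshold too (adjusted p = 0.315). Of the 33 effector Treg genes 4 were higher and 4 lower than in the mean of both lines (median log2 change -0.06). Treg identity genes had 2 higher and 7 lower of 29 (median -0.03), and resting and central genes 3 and 4 of 22 (median -0.03). Th1 genes had 5 higher and none lower of 19 (median 0.35). Of the 40 mitosis genes none was higher and 17 were lower in miR-24 Tg than in the mean of both lines, with a median log2 change of -1.02. Their summed level was 433 to 462 RPKM in miR-23 Tg and 434 to 1120 RPKM in miR-27 Tg.

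**Figure D3:**
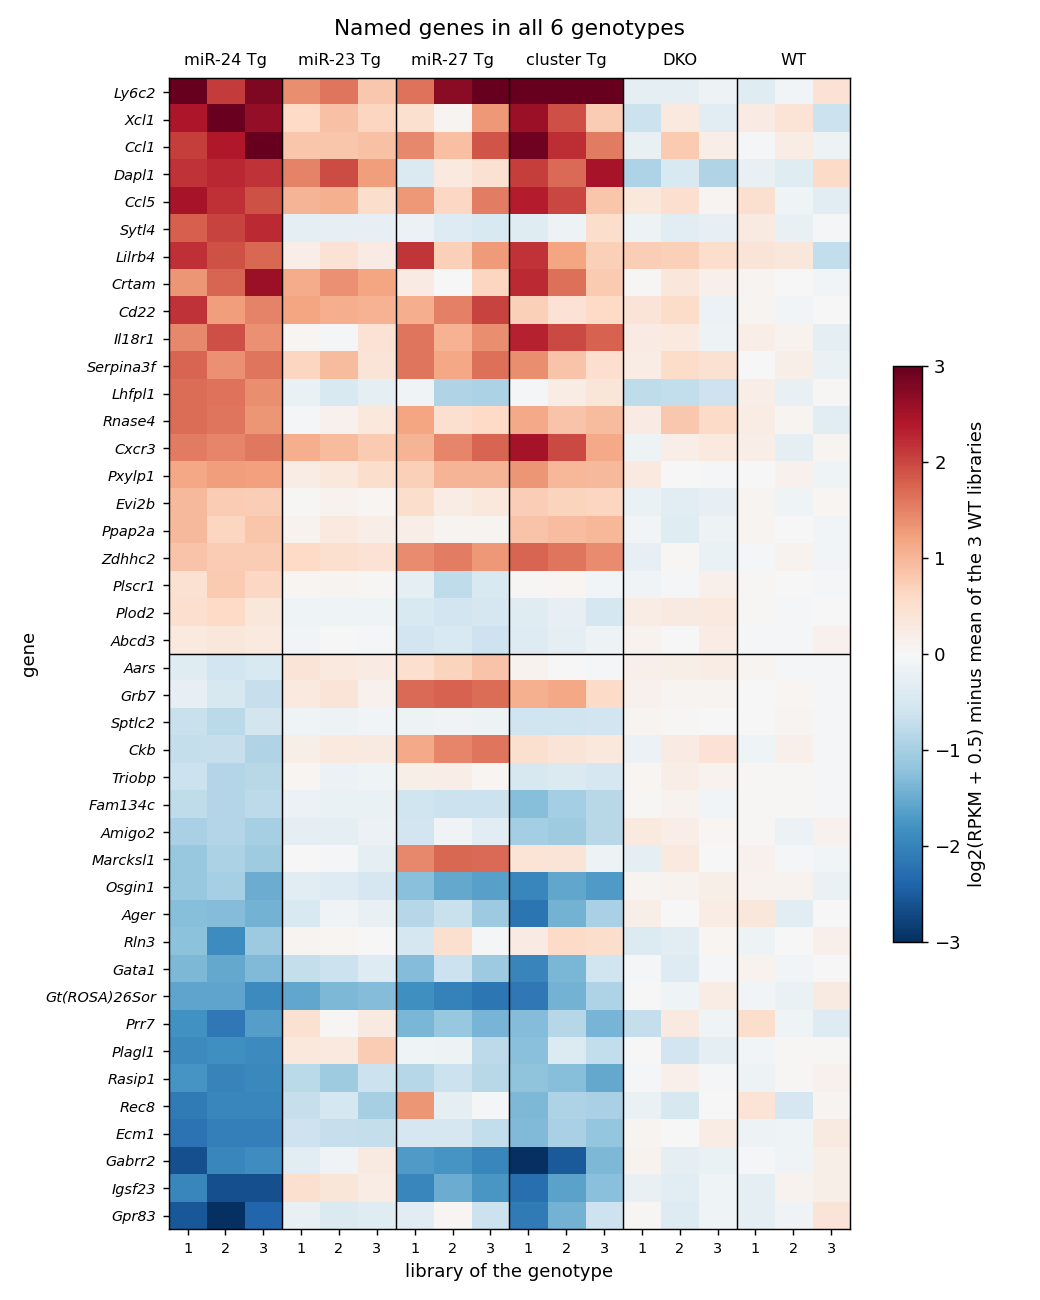
Log2(RPKM + 0.5) of 42 named genes in all 18 libraries, as the difference from the mean of the 3 WT libraries, with miR-24 Tg leftmost and WT rightmost. Colours are limited to 3 in either direction. Gpr83 and Ecm1 are lowest in miR-24 Tg, Sytl4 is high in no other group, and Gt(ROSA)26Sor is low in all 4 Tg groups.

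Cluster Tg against DKO compares gain with loss of the whole cluster in libraries that the miR-24 Tg and WT groups do not contain. There 1734 genes were higher (15.1%) and 1338 lower (11.6%). Of the 530 genes higher in miR-24 Tg, 325 were also higher in cluster Tg against DKO (61.3% of the miR-24 Tg rises and 18.7% of the cluster rises), and 9 were lower. Of the 504 lower genes, 280 were also lower there (55.6% of the miR-24 Tg falls and 20.9% of the cluster falls), and 9 were higher. Over the 1034 called genes the log2 changes of both comparisons had a Pearson r of 0.667 and a Spearman rho of 0.814. Over all 11520 tested genes these were 0.327 and 0.464. Choosing genes by a call in 1 of the comparisons can by itself raise such values. They describe genes, which are not independent replicates, and both comparisons took the spread of each gene from the same fit of all 18 libraries. B cell marker sums were closer in this comparison, at 295 to 394 RPKM in cluster Tg and 193 to 299 RPKM in DKO. Myeloid marker sums did not overlap, at 161 to 194 RPKM in cluster Tg and 101 to 145 RPKM in DKO. Mitosis sums were 393 to 515 RPKM in cluster Tg and 116 to 259 RPKM in DKO, with 29 of 40 genes higher and none lower. The part of these differences in the shared calls was not tested.

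Dapl1, Il18r1 and Ecm1 were among the genes that moved in both comparisons. Dapl1 averaged 41.2 ± 10.9 RPKM in cluster Tg and 5.24 ± 1.11 RPKM in DKO (7.19-fold, adjusted p = 1.81e-05), and Il18r1 averaged 120 ± 23.3 RPKM in cluster Tg and 31.7 ± 5.26 RPKM in DKO (3.73-fold, adjusted p = 3.74e-05). Ecm1 averaged 62.4 ± 7.59 RPKM in cluster Tg and 149 ± 12.6 RPKM in DKO (2.39-fold lower, adjusted p = 1.17e-05). The site genes Sptlc2 (1.55-fold lower, adjusted p = 1.74e-05) and Fam134c (2.08-fold lower, adjusted p = 4.39e-06) fell there too. So did Rasip1, a Ras-interacting protein known from endothelium, which had no site. It stood at 0.523, 0.375 and 0.414 RPKM in miR-24 Tg, against 2.63, 3.08 and 3.31 RPKM in WT (3.74-fold lower, adjusted p = 7.25e-06), and was 2.57-fold lower in cluster Tg than in DKO (adjusted p = 2.35e-05). Osgin1, an oxidative stress-induced growth inhibitor, fell 2.3-fold in miR-24 Tg against WT (adjusted p = 0.000225) and 3.62-fold in cluster Tg against DKO (adjusted p = 2.3e-06).

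Other changes of miR-24 Tg did not pass there. Cd5 averaged 313 ± 23.9 RPKM in cluster Tg and 315 ± 8.46 RPKM in DKO (adjusted p = 0.93), and Fgl2 averaged 14.6 ± 1.29 RPKM in cluster Tg and 13.7 ± 2.56 RPKM in DKO (adjusted p = 0.684). Plagl1 (adjusted p = 0.0956), Sytl4 (adjusted p = 0.446) and Cd22 (adjusted p = 0.348) missed the threshold as well. Rln3 had the opposite sign, with 76.3 ± 8.77 RPKM in cluster Tg and 47.5 ± 8.62 RPKM in DKO (1.61-fold higher, adjusted p = 0.0363).

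**Figure D4:**
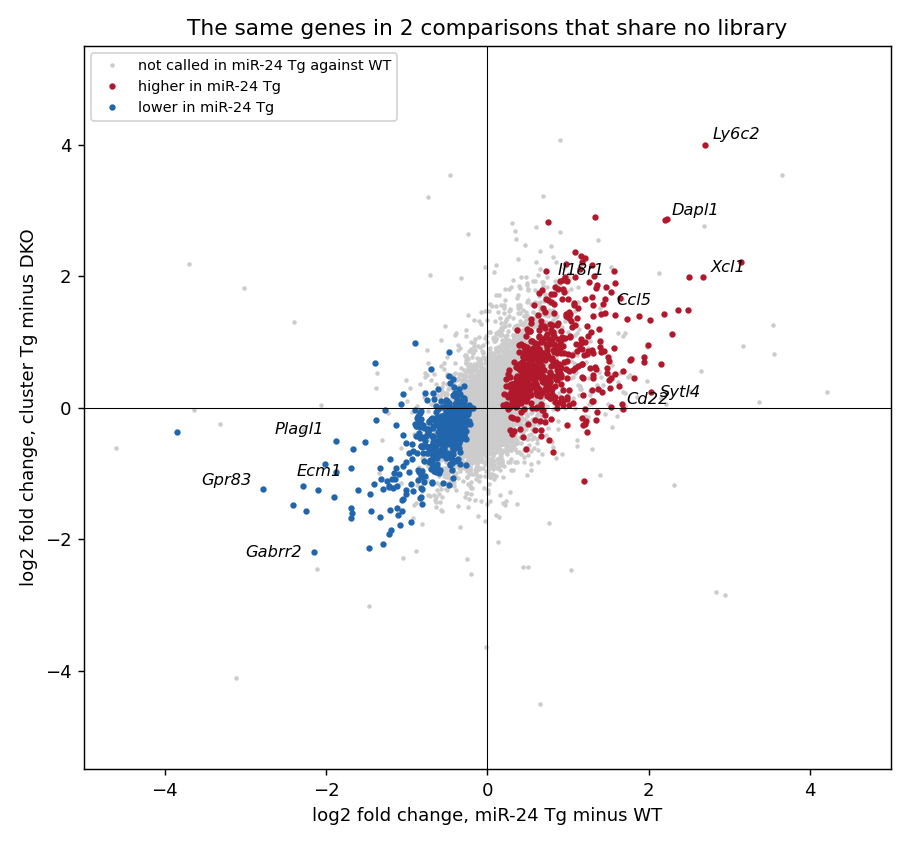
Log2 fold change of each tested gene in miR-24 Tg against WT (horizontal) and in cluster Tg against DKO (vertical), without 280 microRNA hairpin entries and with 4 genes, none called, outside the axes. Red points are the genes higher and blue points the genes lower in miR-24 Tg than in WT. Most red points lie above 0 and most blue points below 0 on the vertical axis, at 92.5% and 89.7% of all called genes, beside 53.2% and 46.8% of all tested genes.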

How the data were processed

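The authors deposited 1 table of RPKM values with a column per library; per the submitters' processing notes, STAR 2.2.0c, HOMER and the mm10 (GRCm38) build were used, and the step that made the RPKM values is not given in the sources used here. Per the labels' protocols, the miRNeasy kit, which keeps small RNAs, was used before TruSeq RNA library preparation. Of 23953 entries, 12429 were below the filter and 4 were dropped because their symbol occurred more than once; 27 carried dates in place of symbols. GENCODE M21 held 22635 symbols as written and 922 under a synonym.

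Read counts were not used here. Depth was estimated from steps between low RPKM values of 3928 single-transcript genes, after taking 200 bases off the transcript length; 55.5 to 61.7% of these values came out whole within 0.03 read, too few for a count test. Very small values at microRNA loci show that reads were shared between entries by a model, so close copies are uncertain.

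limma 3.58.1 in R 4.3.3 (mean-variance trend, prior of 2.26 degrees of freedom) was fitted to log2(RPKM + 0.5) of all 18 libraries, with a mean per genotype. Fold changes on this scale understate changes of low genes. p-values were two-sided and Benjamini-Hochberg adjusted over 11520 genes in each comparison, with calls at an adjusted p under 0.05. Self-tests on simulated data recovered known changes. Python 3.11.15 and pandas 2.3.3 read the tables, and matplotlib 3.10.9 drew the figures.

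Named genes were the 12 largest stable rises and falls with at least 5 RPKM in the higher group, for each list at most the 4 genes of smallest p, 6 each way that differed from the other single lines, 6 site genes, the literature targets, a panel (Foxp3, Il2ra, Ctla4, Ikzf2, Gpr83, Ecm1, Mir24-2) and 6 each way shared with cluster Tg against DKO. Predicted, clone and small RNA symbols were skipped, and 3 genes under this rule are not reported here. The comparison, lists and rule were chosen with earlier results of these data known. Alternatives were a pseudocount of 0.1 or 1, no filter, a mean of at least 5 RPKM, median-of-ratios scaling, only the 2 groups, a replicate block, 1 library left out at a time and a B cell covariate; a covariate for mitosis genes was added after seeing the data.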

Additional observations from a re-analysis of the deposited data

How the results depend on the processing

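The counts of genes higher and lower in miR-24 Tg against WT, 530 and 504, were within 1.5 times under another pseudocount, with no filter and with median-of-ratios scaling. A mean of at least 5 RPKM left 286 higher genes, and the fit on only both groups gave 284 higher and 271 lower. The B cell covariate gave 165 and 173, and the mitosis covariate, chosen after seeing the data, 921 and 781. Leaving out 1 library gave 264 to 470 higher and 255 to 377 lower genes. The deviations of same-numbered libraries from their group means had correlations of -0.00365, -0.00913 and 0.188. Library 1 had the male pattern in both groups, so these correlations cannot settle whether the numbers pair the samples. The fit with a replicate block called 610 higher and 585 lower. The cause of these shifts was not tested. The other comparisons kept their counts within 1.5 times under another pseudocount, median-of-ratios scaling and the replicate block. The remaining alternatives, among them the covariates and leaving out libraries, were not run for them. Leaving out 1 miR-24 Tg library put the mean of Mir24-2 between 9084 and 16245 RPKM. Of the 71 called genes named here, 47 passed in every alternative run for them (15, or 14 for 6 low genes that the filter on the mean removed) and 21 missed the threshold with the B cell covariate. No called result reversed; the small changes of some uncalled genes, such as Foxp3 and Ctla4, changed sign. With 3 libraries a group, small changes of low genes may have been missed, and this was not measured.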
